A study of Homo sapiens and Mus musculus with 15 samples.

Results

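The multiple myeloma line RPMI-8226, called 8226 here, was compared with a derivative of it that grows in the proteasome inhibitor bortezomib, across all 23346 listed genes. The libraries were chosen by their sample titles: 3 of naive 8226 and 3 of bortezomib-resistant 8226, 6 of the 15 RNA-seq libraries of the series. The line derives from a human plasma cell tumour. The resistant cells were raised over several months in rising bortezomib, were then held in 10 nM of the drug, and had been without it for 5 days when RNA was taken; the naive cells carry no drug resistance label. All cells grew in IMDM with 20% fetal bovine serum and had been out of frozen storage for less than 1 month. A carfilzomib-resistant 8226 line (3 libraries, 10 nM carfilzomib, also 5 days without drug) shared the fit and is used here to show where the bortezomib-resistant cells differ from another resistant derivative. The labels name a single derived line per drug and do not say whether the 3 libraries of a group came from separate cultures. The spread behind the p-values is thus that of 3 libraries a group and may be only technical, and changes that came with deriving that line cannot be told apart from resistance.

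Bortezomib blocks the proteasome, the complex that degrades ubiquitin-tagged proteins. Plasma cells make and secrete antibody at a high rate, so they depend on the endoplasmic reticulum (ER), its chaperones and the unfolded protein response, and on the proteasome to remove misfolded chains. Interferon signalling, in contrast, runs from surface receptors through JAK kinases and STAT factors to genes that carry a response element in their promoters, among them the guanylate-binding proteins and the OAS and IFIT families.

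Reads on genes ran from 39032731 to 46874782 in naive and from 31709636 to 34339788 in resistant libraries, so the resistant group was the shallower. Levels are in CPM, gene counts scaled to the TMM-adjusted library size. Libraries of a group correlated at 0.9967 or more across genes (log2 of CPM plus 1), against 0.888 to 0.891 between naive and resistant libraries; genes are not independent replicates. The 100 most abundant genes took 17.6% to 18.2% of gene reads in naive and 13.9% to 14.3% in resistant libraries, and the share of reads outside annotated genes was 10.4% to 12.9% in naive and 14.9% to 16.6% in resistant libraries. Their part in the differences below was not tested. Both groups held plasma cell transcripts: the 15 defining plasma cell markers summed to 8978 to 10174 CPM in naive and 4085 to 4245 CPM in resistant libraries. The joining chain gene IGJ made up most of these sums, with means of 6895 CPM in naive and 2221 CPM in resistant cells. Among plasma cell markers, CD27 and SLAMF7 stood at 0.00904 to 0.00913 CPM and 1.56 to 0.0376 CPM (naive to resistant). Of 16 erythroid and megakaryocyte markers, 9 had 0 counts in all 6 libraries, HBB and GATA1 among them, and the list summed to 9.71 to 13.7 CPM in naive and 6.83 to 7.95 CPM in resistant libraries. Of 20 myeloid markers, 10 passed the filter and only MPO had 0 counts throughout; the list summed to 115 to 120.1 CPM in naive and 75.8 to 78.9 CPM in resistant libraries, with CD68 at 48.3 to 8.63 CPM and AIF1 at 2.96 to 25.2 CPM (naive to resistant). Of 20 T and NK cell markers, 5 had 0 counts, and the sums were 258 to 281 CPM in naive and 161 to 179 CPM in resistant libraries. The T cell marker CD8B stood at 249.6 to 150.4 CPM and the epithelial marker EPCAM at 166 to 46.0 CPM (naive to resistant). Of 12 epithelial markers 10 were tested, of which 3 rose and 6 fell. That list summed to 448 to 459 CPM in naive and 279 to 302 CPM in resistant libraries. A keratin on it averaged 185 CPM in resistant cells. The highest naive mean among all keratin symbols, 146 CPM, was that of a different gene, KRT15, which fell. Summed over all keratin symbols, the means were 436 CPM in naive and 375 CPM in resistant cells. The part of other cells in the results was not tested.

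Promoters of 2 gene groups that moved are shown first, because the groups went in opposite directions and each carries a known response element more often than other promoters. Whether carrying an element goes with the direction or size of a gene's change was not tested. The sequences are the reference bases of RefSeq (GRCh38.p14), 5′ to 3′ on the strand of the gene, with positions counted back from the annotated start; 10608 of the tested genes had an entry. Capitals mark exact matches on either strand. In the ER group the element searched was CCAAT, then 9 bases of any kind, then CCACG, the ER stress element bound by ATF6 together with NF-Y.
HSPA5, chr9:125241344-125241473, minus strand, positions -130 to -1: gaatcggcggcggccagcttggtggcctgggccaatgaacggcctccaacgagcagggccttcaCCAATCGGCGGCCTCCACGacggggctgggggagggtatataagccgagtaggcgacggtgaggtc
CALR, chr19:12938359-12938479, plus strand, positions -250 to -130: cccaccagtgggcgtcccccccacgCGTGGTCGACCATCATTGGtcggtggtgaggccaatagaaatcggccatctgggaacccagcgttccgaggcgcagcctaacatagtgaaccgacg
HSP90B1, chr12:103930200-103930349, plus strand, positions -210 to -61: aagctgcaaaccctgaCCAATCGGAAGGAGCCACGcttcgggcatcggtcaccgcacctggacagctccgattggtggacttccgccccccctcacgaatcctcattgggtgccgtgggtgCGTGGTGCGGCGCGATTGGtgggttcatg
Of the 27 ER chaperone and disulfide enzyme genes with a promoter entry, 6 held this element within 250 bases upstream (22.2%), against 0.141% of all tested genes and 0.0806% of all promoters in the table. The 6 genes were HSPA5, CALR, HSP90B1, CRELD2, CANX and ERO1LB. HSPA5, the main ER chaperone of the HSP70 family, stood at 1906, 2005 and 1852 CPM in naive and 1042, 1027 and 1047 CPM in resistant libraries. CALR, a calcium-binding lectin chaperone, stood at 1657, 1741 and 1832 CPM in naive and 867, 880.1 and 923 CPM in resistant libraries, and HSP90B1, the ER member of the HSP90 family, at 2258, 2397 and 2052 CPM in naive and 1373, 1329 and 1251 CPM in resistant libraries. No resistant library reached a naive library for any of the 3, and the groups did not overlap for 79.6% of all tested genes. The fitted log2 differences of the 3 (resistant minus naive, here and below) were -0.89 ± 0.0515, -0.97 ± 0.0557 and -0.76 ± 0.0609. CRELD2 (-0.26) and CANX (-0.20) fell less, and ERO1LB was not called (-0.08, adjusted p = 0.448). With library size alone as the scaling, neither CRELD2 (-0.08) nor CANX (-0.01) was called. PDIA4 (-1.82) and DNAJC10 (-1.75), whose promoters lack the element, fell more than any of the 6, while QSOX1, also without it, rose (1.10).

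In the interferon group the element searched was GAAA, then 2 bases of any kind, then GAAA, the core of the interferon-stimulated response element bound by IRF factors.
PARP12, chr7:140062952-140063051, minus strand, positions -100 to -1: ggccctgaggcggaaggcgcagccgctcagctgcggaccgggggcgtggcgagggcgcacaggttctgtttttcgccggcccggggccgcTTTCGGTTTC
IFIT3, chr10:89327807-89327916, plus strand, positions -190 to -81: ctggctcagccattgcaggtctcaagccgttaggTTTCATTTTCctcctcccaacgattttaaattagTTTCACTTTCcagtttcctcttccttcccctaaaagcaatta
OAS3, chr12:112938314-112938473, plus strand, positions -160 to -1: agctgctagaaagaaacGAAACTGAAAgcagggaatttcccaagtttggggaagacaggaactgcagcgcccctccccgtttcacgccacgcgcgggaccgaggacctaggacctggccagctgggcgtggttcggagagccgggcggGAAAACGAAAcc
This core lay in 10 of the 15 promoters of the GBP, OAS, IFIT and related families (66.7%), against 2.50% of all tested genes and 3.07% of all promoters in the table. PARP12, an interferon-induced ADP-ribosyltransferase, stood at 11.5, 10.1 and 11.8 CPM in naive and 43.5, 44.4 and 46.1 CPM in resistant libraries. IFIT3, an antiviral adaptor, stood at 16.0, 19.1 and 16.6 CPM in naive and 41.9, 40.4 and 38.5 CPM in resistant libraries. Both rose (2.0 ± 0.0691 and 1.23 ± 0.0724). OAS3, an enzyme that makes the 2-5A signal for RNA degradation, carries the core at 2 positions and stood at 3.57, 3.31 and 3.99 CPM in naive and 0.0272, 0.0292 and 0.0548 CPM in resistant libraries, a fall of 6.49 on the log2 scale. SAMD9 and IFITM1, antiviral factors whose promoters also hold the core, fell by 3.25 and 2.93. OAS3, SAMD9 and IFITM1 were thus among the only 4 tested genes of the group that fell, against 23 that rose. A match is a description of letters and shows no binding.

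The change was broad and uneven. Of 13910 genes tested, 11095 differed (79.8%) by edgeR's quasi-likelihood test at an adjusted p below 0.05, with 5314 higher (38.2%) and 5781 lower (41.6%) in resistant cells. The 2 groups of libraries did not overlap for 11079 genes (79.6%). Small and moderate changes were near balance, but the large ones were not: 1824 genes were called at least 2-fold higher (13.1%) and 2695 at least 2-fold lower (19.4%), while at 10-fold or more the counts were 383 and 1470. Many of the last are genes with few or no counts in the lower group, whose fitted fold depends on a prior count. With library size alone, the median gene shifted up by 0.19 on the log2 scale and 6665 genes were called higher against 4681 lower, so that higher calls made up 58.7% of calls in place of 47.9%. Values below are relative to the TMM scaling. Most changes were small: the median size over tested genes was 0.592 on the log2 scale, a fold of 1.51. Among tested genes, the weakly expressed moved most in the shares below. The filter kept genes with enough counts in as few libraries as 1 group holds. Levels are averaged over the 2 compared groups. The part of the filter and the averaging in these shares was not tested. Of genes averaging under 1 CPM, 66.6% were called and at least 2-fold apart, against 19.5% of those from 10 to 100 CPM and 11.9% of those from 100 to 1000 CPM. All of the 2-fold calls among the 71 genes above 1000 CPM were falls (18.3% of them).

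**Figure D1:**
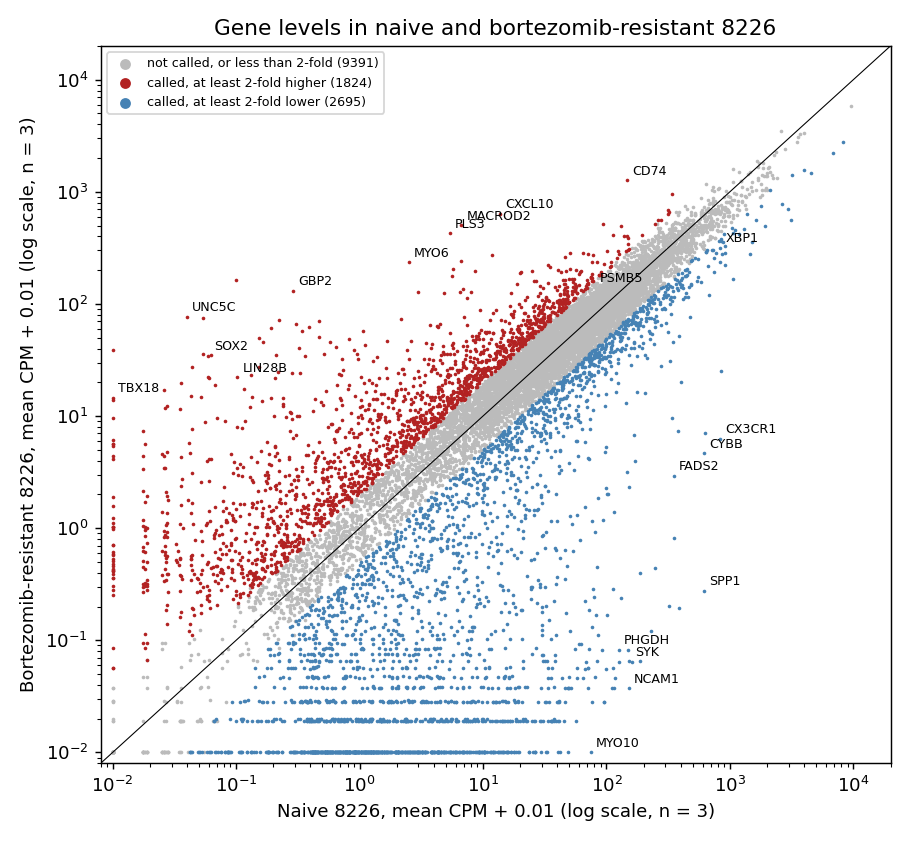
Mean level of each tested gene in naive (x axis) and bortezomib-resistant 8226 (y axis), in CPM plus 0.01 on log scales, with 3 libraries a group; red and blue points were called and at least 2-fold apart. The points along the bottom edge are genes left at or near 0 counts in resistant cells, and they outnumber those along the left edge.

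**Figure D2:**
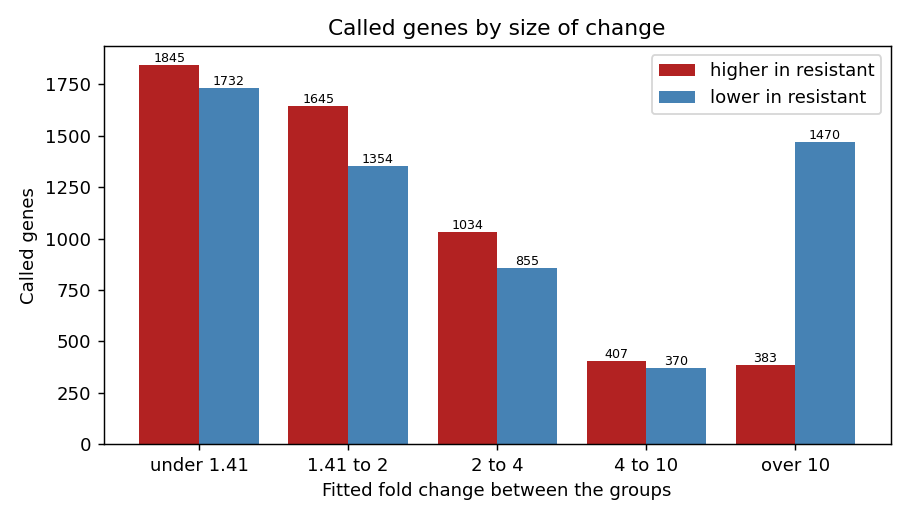
Number of called genes by fitted fold change, higher (red) or lower (blue) in resistant libraries. Higher calls outnumber lower ones up to 10-fold, and above it 1470 lower calls stand against 383 higher ones.

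Measured as CPM gained or lost, a quantity that favours abundant and long transcripts, the 12 largest gains went to genes of mixed function. CD74, the invariant chain of MHC class II, stood at 148, 144 and 146 CPM in naive and 1261, 1199.6 and 1337 CPM in resistant libraries. ACTB, beta-actin, stood at 2722, 2334 and 2724 CPM in naive and 3363, 3446 and 3585 CPM in resistant libraries, and VIM, the intermediate filament vimentin, rose from 341 ± 0.782 to 947 ± 25.7 CPM. The largest gains also included CXCL10, TCF4 (643 ± 78.6 to 1163 ± 79.7 CPM), a transcription factor of B and dendritic cells, ATP5A1 (1057 ± 28.6 to 1597 ± 19.4 CPM), the alpha subunit of ATP synthase, and PRDX1 (728 ± 48.6 to 1096 ± 32.6 CPM), a peroxiredoxin. KLF6, a zinc finger transcription factor, rose from 132 ± 3.24 to 495 ± 19.9 CPM, and CABLES1, a cyclin-dependent kinase partner, from 316 ± 16.0 to 687 ± 13.3 CPM. NPC1, which exports cholesterol from lysosomes, stood at 93.3, 96.6 and 93.6 CPM in naive and 504, 539.6 and 519 CPM in resistant libraries. Only called genes whose groups do not overlap could enter the lists of gains and losses, so that separation is no result.

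The 12 largest losses were also of mixed function. FN1, the matrix protein fibronectin, lost the most and stood at 8634, 8701 and 7485 CPM in naive and 2587, 2903 and 2904 CPM in resistant libraries. IGJ, the joining chain of IgA and IgM, stood at 6155, 7442 and 7087 CPM in naive and 2166, 2219.7 and 2277 CPM in resistant libraries. ITGB7, the integrin beta-7 subunit that is a known target of MAF in myeloma, stood at 3112, 2777 and 3426 CPM in naive and 543, 555 and 590.0 CPM in resistant libraries, a fall of 2.46 ± 0.0718 (adjusted p = 6.0e-14). PPIB, an ER prolyl isomerase, fell from 1938 ± 116 to 499.5 ± 28.0 CPM, FTL, the ferritin light chain, from 2933 ± 68.0 to 702 ± 56.5 CPM, and CREG1, a secreted glycoprotein, from 1502 ± 23.8 to 358 ± 11.0 CPM. AHNAK, a giant scaffold protein, fell from 1464 ± 203 to 280.2 ± 36.0 CPM and the poly(A)-binding protein gene PABPC1 from 3171 ± 201 to 1426 ± 78.3 CPM. EEF1A1, which carries aminoacyl-tRNA to the ribosome, fell from 9507 ± 648 to 5838 ± 223 CPM. RPL4, RPLP1 and PKM2 completed the 12 largest losses.

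Genes with at least 2 CPM in the lower and 20 CPM in the higher group also changed by large factors. The steepest rise among them was that of MYO6, a myosin that walks toward the minus end of actin: it stood at 2.85, 2.60 and 2.03 CPM in naive and 237, 244 and 222 CPM in resistant libraries (log2 difference 6.54 ± 0.0946, adjusted p = 3.0e-17). In carfilzomib-resistant cells MYO6 was at 0.203 CPM, and the difference between the resistant lines was 10.14 (adjusted p = 1.6e-17), 1 of 10690 genes called in that comparison (76.9%). PLS3, an actin-bundling plastin, stood at 5.56, 5.85 and 4.69 CPM in naive and 447, 437 and 402 CPM in resistant libraries, and MACROD2, an enzyme that removes ADP-ribose from proteins, at 6.84, 6.33 and 6.64 CPM in naive and 518, 502 and 491 CPM in resistant libraries. TMPRSS15, the protease enteropeptidase, rose from 2.97 ± 0.445 to 128 ± 6.21 CPM and was at 0.135 CPM in carfilzomib-resistant cells. LIPG, endothelial lipase, rose from 4.78 ± 0.531 to 126 ± 3.51 CPM and the cholesterol exporter ABCA1 from 2.61 ± 0.294 to 46.7 ± 0.757 CPM; they were at 0.236 and 0.781 CPM in the carfilzomib line. ETS1, a lymphoid transcription factor, stood at 8.57, 8.35 and 8.92 CPM in naive and 202, 198 and 185 CPM in resistant libraries, with 5.99 CPM in the carfilzomib line (difference 5.02, adjusted p = 2.0e-17). IL2RG, the common gamma chain of cytokine receptors, rose from 5.71 ± 0.216 to 205 ± 3.82 CPM, IL32, a proinflammatory cytokine, from 5.56 ± 0.731 to 177 ± 20.7 CPM, and APOL1, an interferon-inducible apolipoprotein, from 6.66 ± 1.03 to 242 ± 5.69 CPM. These 3 were also high in the carfilzomib line, at 177, 245 and 141 CPM. GREB1, HLA-DRA, LILRB4 and ANXA6 were the remaining genes of the 15 steepest rises, along with CXCL10.

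The steepest falls under the same limits were also large. CYBB, the catalytic subunit of the phagocyte NADPH oxidase, stood at 617, 636 and 607 CPM in naive and 4.76, 4.70 and 4.41 CPM in resistant libraries. CX3CR1, the fractalkine receptor, stood at 851, 839 and 797 CPM in naive and 6.75, 6.25 and 5.86 CPM in resistant libraries. FADS2, the delta-6 fatty acid desaturase, stood at 363, 302 and 384 CPM in naive and 2.75, 2.86 and 3.18 CPM in resistant libraries, and ASS1, which makes argininosuccinate and allows cells to make arginine, at 605, 638 and 650.4 CPM in naive and 7.70, 6.45 and 7.13 CPM in resistant libraries. Non-overlap of the groups was a condition for entering this list, so it is no result for these 4. In the carfilzomib line the same 4 genes stood at 356, 484, 285 and 313 CPM, and each differed between the resistant lines (log2 -6.27, -6.27, -6.60 and -5.46, adjusted p at most 9.8e-17). ARHGDIB, which holds small GTPases inactive in blood cells, fell from 382 ± 32.9 to 7.36 ± 0.894 CPM, and HAVCR2, the checkpoint receptor TIM-3, from 104 ± 7.42 to 2.02 ± 0.142 CPM. IGFBP3, which binds insulin-like growth factors, fell from 852 ± 45.4 to 25.3 ± 1.51 CPM and MACC1, a regulator of MET, from 152 ± 5.13 to 2.31 ± 0.320 CPM. ADCY1, an adenylyl cyclase, fell from 341 ± 24.6 to 9.62 ± 0.473 CPM, the keratin KRT15 from 146 ± 6.05 to 3.15 ± 0.373 CPM and UNC13C, a presynaptic priming factor, from 171 ± 10.9 to 3.97 ± 0.102 CPM; in the carfilzomib line these were also low, at 11.5, 5.52 and 9.04 CPM. ADAM23, TRIM59 and C11orf31 were also among the steepest falls.

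Losses to the limit of detection far outnumbered gains from it. A total of 149 genes had at least 10 CPM in naive cells and at most 3 counts over the 3 resistant libraries, and 8 genes showed the opposite. Of the 149, 50 had 0 counts in every resistant library, and a count of 0 still allows up to 3 counts, or 0.0817 to 0.0875 CPM, per library. The imbalance was also there with a looser limit: 276 genes against 55 passed when the lower group was allowed up to 0.5 CPM. Such limits speak for counting error alone. In the carfilzomib line, 33 of the 149 lost genes were also at 3 counts or fewer, 50 were at 10 CPM or more, and 66 lay between; both counts are against the same naive libraries.

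The most abundant of the lost genes were of mixed function. NCAM1 was followed by LBH, a developmental transcription cofactor, with 120.2, 103 and 120.4 CPM in naive and 0.0545, 0.0292 and 0 CPM in resistant libraries. PODXL2, a sialomucin of the endoglycan type, stood at 110.2, 106 and 116 CPM in naive and 0.0545, 0 and 0.0274 CPM in resistant libraries, and KCTD12, an auxiliary subunit of GABA-B receptors, at 95.6, 93.1 and 99.2 CPM in naive and 0.0545, 0 and 0 CPM in resistant libraries. CRIM1, a membrane protein that binds BMPs, stood at 98.1, 88.8 and 97.1 CPM in naive and 0.0545, 0 and 0 CPM in resistant libraries. MYO10, the myosin of filopodium tips, had 79.2, 74.2 and 69.5 CPM in naive and 0, 0 and 0 CPM in resistant libraries and 0 counts over the resistant group. MATN2, a matrix adaptor, BCHE, the butyrylcholinesterase gene, NLRP5, a maternal-effect gene of the oocyte, and SERPINE2, a serpin, fell from 76.9, 70.6, 56.3 and 51.2 CPM in naive cells to 3 counts or fewer. In the carfilzomib line SERPINE2, BCHE and PODXL2 stood at 143, 62.2 and 88.8 CPM, whereas LBH and KCTD12 stood at 0.00805 and 0.733 CPM. The 8 genes that appeared were ODZ3, a teneurin, ANKRD22, NAA11, TBX18, ANGPTL1, DCC, GPER and MPPED2. DCC, the netrin receptor, stood at 0, 0.0252 and 0.0271 CPM in naive and 12.3, 13.4 and 10.8 CPM in resistant libraries, and ANKRD22 at 0, 0.0505 and 0.0271 CPM in naive and 20.4, 20.2 and 18.5 CPM in resistant libraries. TBX18, a T-box factor, was also present in the carfilzomib line at 14.9 CPM, while DCC, ANGPTL1 and MPPED2 were there at 0.0116, 0 and 0.00633 CPM.

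Gene groups were then described by their counts, each against the shares over all tested genes (38.2% higher, 41.6% lower, median log2 difference -0.03). In the secretory system, most genes of entry to and folding in the ER fell while genes of later transport were split. Of 40 translocon and N-glycosylation genes, 30 fell and 6 rose (median -0.57). SSR3, a subunit of the translocon-associated complex, fell from 1638 ± 111 to 562 ± 6.88 CPM. RPN1, a subunit of the oligosaccharyltransferase, fell from 908 ± 57.7 to 329.8 ± 13.7 CPM, and SEC61A1, the channel itself, from 845 ± 33.9 to 361 ± 10.4 CPM. The catalytic subunit gene STT3B fell by 1.45, while UGGT2, a glycoprotein folding sensor, rose by 0.96. Of 30 ER chaperone and disulfide enzyme genes, 23 fell and 5 rose (median -0.81). P4HB, the main disulfide isomerase, fell from 1182 ± 28.8 to 423 ± 15.7 CPM and DNAJC10, a reductase with a J domain, from 543 ± 22.7 to 161 ± 5.46 CPM, while QSOX1, a sulfhydryl oxidase, rose from 12.9 ± 2.29 to 27.6 ± 2.09 CPM. Of 43 ER to Golgi transport genes, 13 rose and 23 fell (median -0.15, or 0.03 with library size alone). The COPII genes SAR1B (0.76) and SEC23A (0.71) rose, PREB, the exchange factor for SAR1, fell by 1.41, and KDELR3, a receptor that returns ER proteins, went from 14.7 ± 0.684 to 0.0364 ± 0.0315 CPM. Of the defining plasma cell markers 11 of 14 fell, and CD38 (0.65), IRF4 and TNFRSF17 rose.

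**Figure D3:**
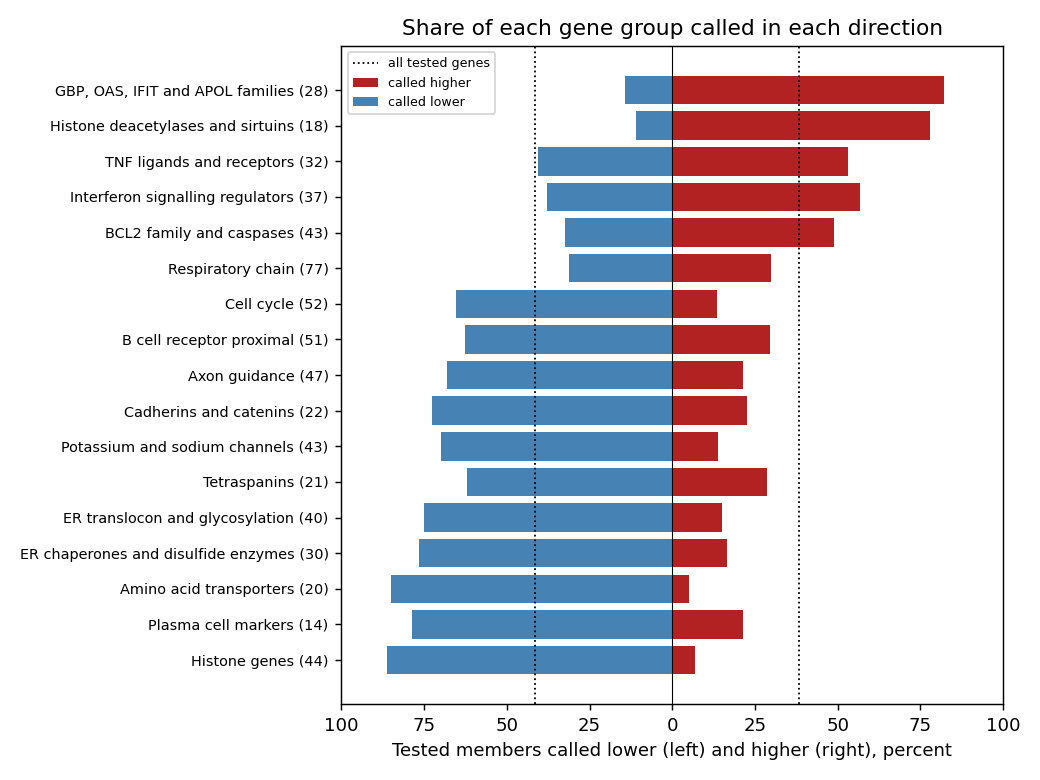
Share of the tested members of each gene group that was called lower (left, blue) or higher (right, red) in resistant libraries, in percent, with the number of tested members in brackets; dotted lines give the shares over all tested genes (41.6% and 38.2%). Of the groups drawn, histone genes, amino acid transporters and plasma cell markers lie farthest to the left and the GBP, OAS, IFIT and APOL families farthest to the right. The last group also holds IFITM, PARP and SAMD9 genes.

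Most transcripts of genes for amino acid and nucleotide supply were called lower, by amounts that shrank with library size alone. Of 20 amino acid transporters, 17 fell and 1 rose (median -0.58, or -0.39 with library size alone). SLC1A4, a neutral amino acid transporter, stood at 333, 327 and 337 CPM in naive and 79.4, 81.5 and 82.9 CPM in resistant libraries, and SLC43A1, a transporter of large neutral amino acids, at 33.5, 28.4 and 35.7 CPM in naive and 0.953, 0.934 and 0.850 CPM in resistant libraries. SLC38A5 fell from 328 ± 36.9 to 98.9 ± 3.35 CPM, and the riser was the lysosomal exporter SLC36A1 (1.57). Of 23 serine and one-carbon genes, 14 fell and 6 rose (median -0.37, or -0.18 with library size alone). CBS, which joins homocysteine and serine, fell from 213 ± 12.8 to 33.0 ± 1.18 CPM and was at 198 CPM in the carfilzomib line. In contrast, SRR, serine racemase, rose by 1.42. Of 30 nucleotide synthesis genes, 19 fell and 5 rose (median -0.25, or -0.06 with library size alone). IMPDH2, the rate-limiting enzyme of guanine nucleotide synthesis, fell from 483 ± 5.12 to 151 ± 3.92 CPM, and CTPS2, 1 of 2 CTP synthases, from 10.2 CPM to 0 counts. The other CTP synthase gene, listed as CTPS, rose by 0.35, and the salvage kinase DCK by 1.10.

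Lipid and mitochondrial genes moved in both directions. Of 49 fatty acid and phospholipid genes, 20 rose and 23 fell. The desaturase FADS1 stood at 384, 389.8 and 392 CPM in naive and 51, 52.8 and 50.2 CPM in resistant libraries, LPL, lipoprotein lipase, fell from 84.0 ± 5.54 to 0.0558 ± 0.0545 CPM, and FABP5, a fatty acid carrier, from 13.3 CPM to 0 counts. ACSL1, which activates long-chain fatty acids, stood at 65.8, 67.0 and 61.4 CPM in naive and 284, 287 and 277 CPM in resistant libraries, and ELOVL6, an elongase, and CERS4, a ceramide synthase, rose by 1.66 and 3.49. Of 77 nuclear genes of the respiratory chain, 23 rose and 24 fell (median 0.00, or 0.19 with library size alone). ATP5I, a subunit of ATP synthase, rose from 52.3 ± 6.06 to 168 ± 18.2 CPM and COX4I1, of cytochrome oxidase, from 272 ± 12.6 to 474 ± 38.6 CPM, while UQCRB, of complex III, fell from 245 ± 36.0 to 73.2 ± 4.52 CPM and NDUFB10, of complex I, from 163 ± 11.4 to 59.2 ± 5.27 CPM. Of 38 pentose phosphate, NADPH and glutathione genes, 13 rose and 17 fell. NQO1 (1.21), GSTO1 (1.41) and MGST3 (1.96) rose, the peroxidase GPX1 fell by 1.45, and GPX7, an ER peroxidase, went from 49.3 ± 1.38 to 0.0272 ± 0.0472 CPM.

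Of 52 cell cycle genes, 34 fell and 7 rose (median -0.33). CCNB2, a mitotic cyclin, fell from 230.1 ± 13.5 to 74.2 ± 1.47 CPM, and the replicative helicase genes MCM7 and MCM2 by 1.17 and 1.13, whereas AURKA, a mitotic kinase, and E2F7, a repressor of the E2F family, rose by 0.51 and 0.95. Of 80 genes with cytosolic ribosome symbols, 65 fell and 3 rose (median -0.44), with RPL26L1 (0.88) among the risers. Mitochondrial ribosome genes were split, with 26 up and 32 down of 77 (median -0.04, or 0.15 with library size alone). Of 58 translation factor genes, 12 rose and 27 fell (46.6%, against 41.6% of all tested genes; median -0.10, or 0.09 with library size alone). EIF3E, a subunit of initiation factor 3, fell from 737 ± 64.9 to 191 ± 5.27 CPM, and EEF1A2, the tissue-restricted paralog of EEF1A1, from 67.3 ± 3.76 to 5.89 ± 0.511 CPM. Of 44 histone genes, 38 fell and 3 rose (median -1.25). The linker histone gene H1F0, whose transcript is not tied to S phase, stood at 185, 205 and 191 CPM in naive and 39.8, 38.0 and 42.3 CPM in resistant libraries. Histone genes share near-identical sequence and most of their transcripts lack a poly(A) tail, so their counts are uncertain. Both H2AFJ (0.88) and H2AFY (0.32), which encode variants, rose.

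In immune signalling, interferon and TNF-family genes rose in larger shares than all tested genes, and more proximal B cell receptor genes fell than rose. Of 37 regulators of interferon and JAK-STAT signalling, 21 rose and 14 fell (median 0.43). STAT4, a factor that acts downstream of cytokine receptors, stood at 1.23, 2.12 and 1.65 CPM in naive and 23.8, 21.3 and 20.9 CPM in resistant libraries. JAK3, the kinase bound to IL2RG, rose from 1.19 ± 0.253 to 12.5 ± 0.512 CPM and was at 0.00805 CPM in the carfilzomib line. CIITA, the master activator of MHC class II, stood at 1.88, 0.984 and 1.30 CPM in naive and 9.07, 10.6 and 10.1 CPM in resistant libraries, while PTPN6, the phosphatase SHP-1, fell from 31.2 ± 1.73 to 6.24 ± 0.0866 CPM, IRF1 fell by 0.60 and STAT5A went from 7.61 ± 0.432 to 0.00908 ± 0.0157 CPM. The group of GBP, OAS, IFIT and APOL families also holds IFITM, PARP and SAMD9 genes. Of its 28 genes, 23 rose and 4 fell (median 1.08), with OAS1 up from 16.8 ± 1.21 to 80.5 ± 2.73 CPM and APOL3 from 4.70 ± 0.372 to 42.6 ± 1.35 CPM. Among 34 sensors of nucleic acids and microbes the direction was mixed (11 up, 16 down). IFI16, a DNA sensor, fell from 588 ± 30 to 158 ± 4.47 CPM and TLR9, a receptor for unmethylated DNA, from 58.5 ± 6.64 to 4.39 ± 0.423 CPM, and MAVS (0.61) and TMEM173, encoding STING (0.88), rose.

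Of 32 TNF ligands and receptors, 17 rose and 13 fell (median 0.88). TNFRSF9, the costimulatory receptor 4-1BB, stood at 0.314, 0.303 and 0.380 CPM in naive and 55.3, 59.5 and 55.8 CPM in resistant libraries and at 0.313 CPM in the carfilzomib line. LTB, lymphotoxin beta, rose from 4.23 ± 0.518 to 63.6 ± 4.19 CPM and CD70, the ligand of CD27, from 4.80 ± 1.70 to 35.7 ± 2.70 CPM. TNFSF13B, the survival cytokine BAFF, rose from 0.195 ± 0.0559 to 5.33 ± 0.141 CPM, while its receptor gene TNFRSF13B, encoding TACI, fell from 59.3 ± 10.2 to 9.93 ± 0.195 CPM, and TNFRSF8, encoding CD30, from 39.3 ± 3.63 to 0.102 ± 0.0297 CPM. Of 51 B cell receptor and lymphocyte signalling genes, 32 fell and 15 rose (median -1.38). SYK, the kinase that binds the phosphorylated receptor, stood at 155, 155 and 149.6 CPM in naive and 0.109, 0.0292 and 0.0274 CPM in resistant libraries, against 219 CPM in the carfilzomib line. HCLS1, a cortactin-like actin adaptor of blood cells, stood at 315, 353 and 300.0 CPM in naive and 0.381, 0.117 and 0.0822 CPM in resistant libraries. The Src-family kinase genes LYN and FYN fell from 14.9 and 31.6 CPM to 0.00908 and 0.0182 CPM. In contrast, PTPN22, a lymphoid phosphatase, rose from 3.41 ± 0.221 to 44.6 ± 2.65 CPM, PIK3CD, the leukocyte PI3-kinase delta, from 5.71 ± 0.715 to 40.2 ± 2.41 CPM, and PLCG1, a phospholipase C, from 28.9 ± 0.987 to 68.3 ± 4.70 CPM. Of 35 listed KIR, LILR and SIGLEC genes, 11 were tested, and 6 of these had 3 counts or fewer in a group. Of the 11, 9 fell, and LILRB4 rose from 6.47 ± 0.488 to 129 ± 5.82 CPM.

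The cell surface and matrix lost members of several families. Of 47 axon guidance genes, 32 fell and 10 rose (median -2.17, or -1.86 with members at 3 counts or fewer in a group set to 3 counts). PLXNA4 and PLXNA2, semaphorin receptors, fell from 36.0 and 33.8 CPM to 0.00908 and 0.0273 CPM, and NRP2, a co-receptor, from 48.1 ± 4.38 to 0.446 ± 0.0866 CPM. The risers included the netrin and slit receptor genes UNC5C, DCC and ROBO1, the last from 0.630 ± 0.104 to 41.0 ± 1.11 CPM. Of 22 cadherin and catenin genes, 16 fell and 5 rose (median -0.99). DSP, desmoplakin, stood at 405, 400.0 and 348 CPM in naive and 0.463, 0.0584 and 0.0274 CPM in resistant libraries, against 184 CPM in the carfilzomib line, whereas its desmosomal partner DSG2 rose from 391 ± 17.3 to 513 ± 22.7 CPM and the cadherin gene CDH19 from 1.37 ± 0.0978 to 33.8 ± 0.512 CPM. Of 119 listed potassium and sodium channel genes, 43 were tested, and 11 of these had 3 counts or fewer in a group. Of the 43, 30 fell and 6 rose (median -1.57), with KCNK1 going from 17.7 CPM to 0 counts. Of 21 tetraspanin genes, 13 fell and 6 rose (median -2.14). CD53 and CD81 fell from 39.7 and 83.6 CPM to 0.354 and 0.444 CPM, and TSPAN17 and CD82 rose by 1.69 and 1.39. Matrix genes were split, with 19 up and 21 down of 47. SPP1, osteopontin, stood at 583, 660.1 and 613 CPM in naive and 0.599, 0.146 and 0.0548 CPM in resistant libraries, and LAMC1, a laminin chain, and TIMP1, a protease inhibitor, rose from 50.7 ± 3.24 to 282 ± 9.48 CPM and from 12.1 ± 0.536 to 54.7 ± 0.730 CPM. Of 34 surface targets of immunotherapy, 22 fell and 8 rose (median -0.61); CD86 fell from 30.5 ± 3.28 to 0.860 ± 0.183 CPM, CD37 from 32.0 ± 0.716 to 2.39 ± 0.357 CPM and CD276 rose from 9.11 ± 0.490 to 25 ± 0.530 CPM. MET, the receptor of hepatocyte growth factor, rose from 0.200 ± 0.0987 to 34.7 ± 2.27 CPM, and ABCG2, a drug efflux pump, fell from 101 ± 2.27 to 0.157 ± 0.0535 CPM.

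Of 43 BCL2-family, caspase and inhibitor-of-apoptosis genes, 21 rose and 14 fell (median 0.14). BCL2, which blocks mitochondrial apoptosis, stood at 161, 158 and 158 CPM in naive and 283, 296 and 280.0 CPM in resistant libraries, and BCL2L11, which encodes its antagonist BIM, stood at 168, 174 and 160.4 CPM in naive and 69.2, 70.2 and 65.2 CPM in resistant libraries. BIRC5, survivin, fell from 228 ± 10.9 to 92.0 ± 1.65 CPM, while APAF1, the core of the apoptosome, and CASP9, which it activates, rose by 1.57 and 1.04. The death receptor gene FAS rose from 22.6 ± 1.61 to 115 ± 1.28 CPM, PERP, a membrane protein of apoptosis and desmosomes, from 0.182 ± 0.00694 to 61.6 ± 2.28 CPM, and TP63 from 0.0499 ± 0.00471 to 22.0 ± 1.59 CPM, while CDKN1A, a cell cycle inhibitor, fell by 0.42. Of 25 proteasome assembly and NRF1-pathway genes, 9 rose and 14 fell (median -0.26, or -0.08 with library size alone). POMP, the chaperone that matures the 20S core, rose from 129 ± 10.8 to 209.8 ± 11.5 CPM, and DDI2, the protease that activates NRF1, and UBE3C, a proteasome-bound ubiquitin ligase, fell by 0.79 and 1.39. Among 36 ubiquitin, E1, E2 and deubiquitinase genes (20 up, 10 down), USP11 rose by 1.54, USP7 fell by 1.28, and UBE2QL1 went from 32.9 CPM to 0 counts in the resistant and also in the carfilzomib line.

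Of 18 histone deacetylases and sirtuins, 14 rose and 2 fell (median 0.48). HDAC1 stood at 118, 126 and 118 CPM in naive and 261, 250.3 and 254 CPM in resistant libraries, HDAC3 rose from 39.4 ± 1.88 to 70.9 ± 1.71 CPM and the tubulin deacetylase HDAC6 from 34.1 ± 0.859 to 53.2 ± 1.65 CPM. Over 78 DNA methylation, Polycomb and chromatin genes, 29 rose and 29 fell. The DNA methyltransferase gene DNMT3B (1.38) and the 5-methylcytosine oxidase genes TET1 (1.87) and TET2 (1.42) rose, and EZH2, the methyltransferase of Polycomb complex 2, fell by 0.69. Of 122 long non-coding RNA symbols, 64 rose and 32 fell (median 0.45); NEAT1, the scaffold of paraspeckles, stood at 802, 861 and 659 CPM in naive and 316, 305 and 232 CPM in resistant libraries. Of 500 C2H2 zinc finger genes, 170 rose and 215 fell. Among developmental transcription factors, SOX2, a stem cell factor, stood at 0.0673, 0 and 0.0813 CPM in naive and 35.0, 34.0 and 34.4 CPM in resistant libraries, ZEB2 rose from 0.0333 ± 0.0150 to 15.1 ± 0.812 CPM and SOX13 fell from 35.6 ± 2.60 to 0.00908 ± 0.0157 CPM. In the carfilzomib line SOX2 and ZEB2 stood at 0.0161 and 0.00633 CPM.

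The median difference also varied between chromosomes, which is given as a description without a test. Chromosome and order came from RefSeq for 13331 of the tested genes, used only for names and neighbours. Chromosome 3 had the lowest median log2 difference (-0.49 over 756 genes, with 124 called higher and 531 lower). Chromosomes 7 (-0.38), 11 (-0.28), 15 (-0.24) and 16 (-0.23) were also low. Chromosomes 4 (0.38), 5 (0.33), 20 (0.30) and 13 (0.24) were high, and X stood at 0.01. Per library, the genes of chromosome 3 had medians of -0.45, -0.45 and -0.47 against the naive mean (log2 of CPM plus 0.5), and naive libraries 0.00, 0.02 and -0.02. On chromosome 5 the resistant libraries stood at 0.33, 0.31 and 0.30. Naive and resistant libraries did not overlap on either chromosome. The same held on chromosome 1, where the median difference was only 0.07, so this separation is not particular to chromosomes 3 and 5. Against the carfilzomib line the medians of chromosomes 3, 5 and 20 were -0.39, 0.47 and 0.43, and that of chromosome 7 was -0.05.

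**Figure D4:**
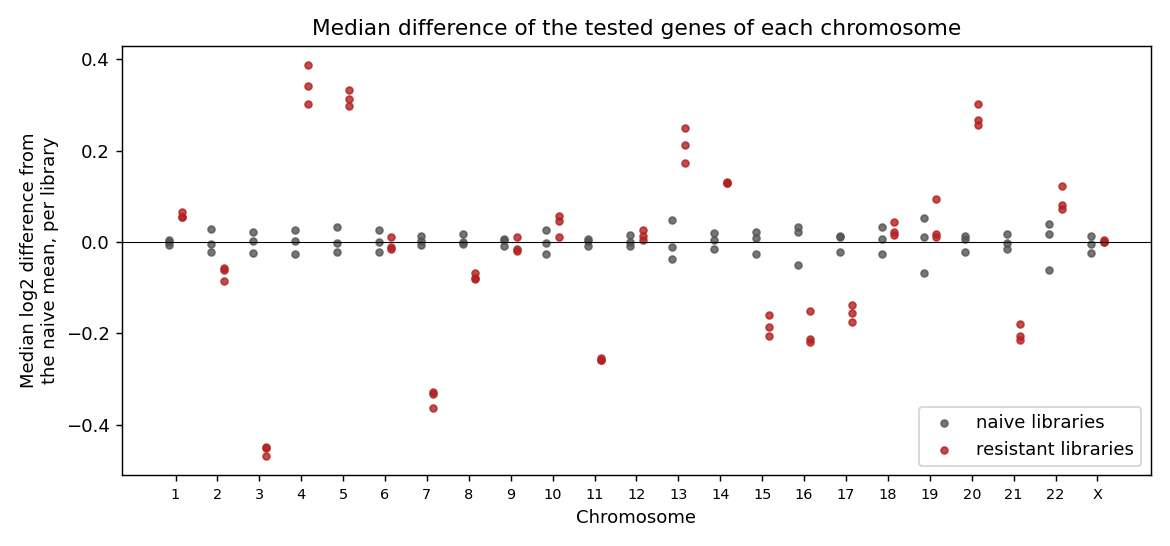
Median log2 difference from the naive mean of the tested genes of each chromosome, 1 point per library (grey naive, red resistant; log2 of CPM plus 0.5). The resistant libraries lie close together on each chromosome, lowest on 3 and highest on 4, 5 and 20.

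Medians also varied within chromosomes. The windows named below were picked as extremes of 12167 overlapping ones, and dependence on position was not tested. Over windows of 51 neighbouring tested genes the median ran from -1.36 to 1.25. The highest window reached from NAF1 to FAT1 on chromosome 4, with 44 genes called higher and 5 lower. It holds PALLD, an actin scaffold (0.106 ± 0.0269 to 17.3 ± 0.206 CPM), DDX60, an interferon-induced helicase (1.37 ± 0.0953 to 14.3 ± 0.514 CPM), and SLC25A4, the ADP/ATP carrier (26.9 ± 1.69 to 159.7 ± 6.26 CPM). Against the naive cells, the same window had a median of 0.13 in the carfilzomib line. The window from ZNF718 to TMEM128 at the other end of the chromosome had 0.95 in bortezomib-resistant and 1.05 in carfilzomib-resistant cells; it includes HTT, the huntingtin gene (50.7 ± 3.81 to 205 ± 15.4 CPM), and PCGF3, a Polycomb subunit (12 ± 0.598 to 54.5 ± 2.39 CPM). On chromosome 13 the window NDFIP2 to MCF2L-AS1 (0.86) holds TNFSF13B and GPR18, and on chromosome 5 the window DDX46 to ZMAT2 stood at 0.70. Chromosome 16, low in its median, held extremes of both signs: WDR59 to MTHFSD at 0.72 and TRAP1 to SHISA9 at -1.02.

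The lowest window, GLCE to IMP3 on chromosome 15, had 44 genes lower and 2 higher, and a median of -0.16 in the carfilzomib line. It includes SIN3A, a corepressor scaffold (244 ± 13.2 to 43.9 ± 2.08 CPM), SEMA7A, a membrane semaphorin (42.2 ± 2.88 to 4.93 ± 0.463 CPM), and NPTN, neuroplastin (109.6 ± 2.93 to 27.9 ± 1.70 CPM). On chromosome 7 the windows ZNF746 to NCAPG2 (-1.29) and MEST to FAM115C (-0.98) were low; ZYX, the focal adhesion protein zyxin, fell there from 17.9 ± 1.59 to 1.26 ± 0.238 CPM. On chromosome 3 the window WNT5A to CGGBP1 had -1.08 against 0.11 in the carfilzomib line, and holds EIF4E3 and PPP4R2 (77.7 ± 2.18 to 20.5 ± 1.71 CPM). The window FAM65B to ZKSCAN4 on chromosome 6 (-1.09) contains the histone cluster.

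**Figure D5:**
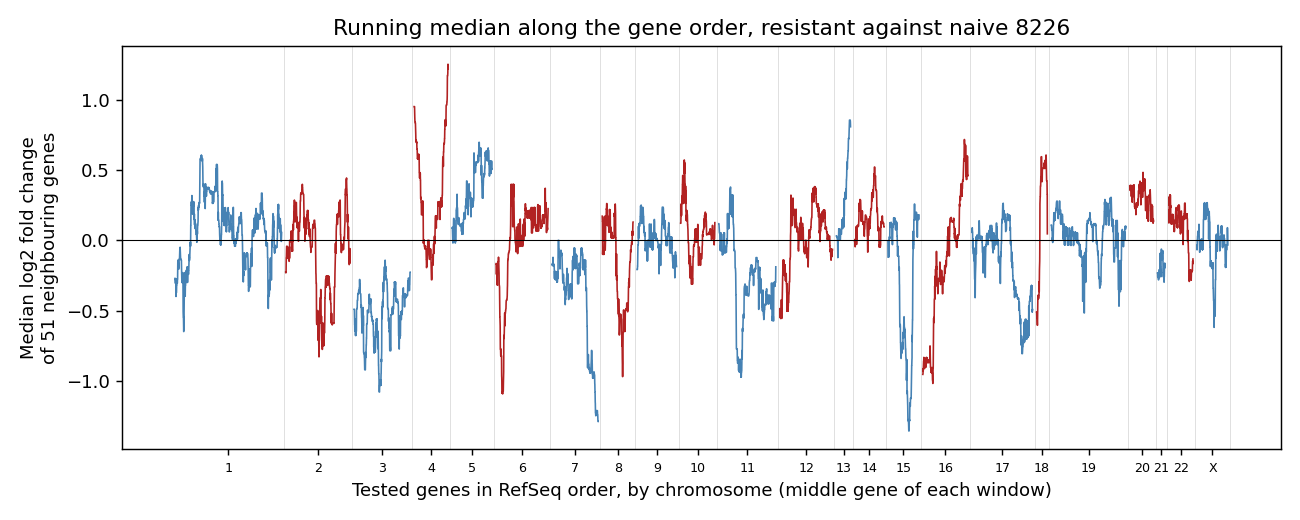
Running median log2 difference (resistant minus naive) of 51 neighbouring tested genes along each chromosome, colours alternating between chromosomes. The line reaches 1.25 at an end of chromosome 4 and -1.36 on chromosome 15, with the 25% and 75% quantiles of all windows at -0.25 and 0.16.

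Smaller runs of neighbours, called and at least 2-fold apart in the same direction without interruption, included known clusters. On chromosome 1 the 9 genes IL10, IL19, FAIM3, PIGR, PFKFB2, YOD1, C4BPB, CD55 and CR2 were all lower (median -7.37, and -1.23 in the carfilzomib line; medians of runs take a group at 3 counts or fewer as 3 counts, so they are lower limits of size where such genes set them). CD55, which shields cells from complement, stood at 45.5, 53.6 and 44.6 CPM in naive and 8.47, 7.27 and 8.22 CPM in resistant libraries. On chromosome 3 the chemokine receptor gene CCR1 stood at 298, 324 and 293 CPM in naive and 71.4, 65.8 and 66.0 CPM in resistant libraries. On X, the 7 genes from BEX5 to TCEAL1 were lower (median -6.80, and -4.74 in the carfilzomib line), and all 7 were at 3 counts or fewer over the resistant group. On chromosome 4 the 5 genes EVC2, EVC, CRMP1, JAKMIP1 and WFS1 were lower (median -6.13), against 0.14 in the carfilzomib line, while the 9 genes from ACSL1 to C4orf47 were higher (2.46 against -0.05). On chromosome 12 CD69, CLEC2B, CLEC1A, CLEC7A and GABARAPL1 rose as a run (median 3.88), and on chromosome 10 ANKRD22, STAMBPL1, ACTA2, FAS and FAS-AS1 did (3.44).

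Promoter composition of the lost genes was set beside that of all genes with at least 10 CPM in naive cells, the lost genes included. The observed over expected CpG ratio of the 250 bases upstream had a median of 0.751 over the 118 lost genes with an entry, against 0.849 over all genes with at least 10 CPM in naive cells. The share below 0.6 was 32.2% and 14.4%. Genes called at least 2-fold higher and lower had medians of 0.743 and 0.739, so the directions lay close together in this property.

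Against this background, 2815 tested genes were not called. The most abundant of them included the cytosolic chaperone gene HSP90AA1 (2360.4 ± 131 to 2247 ± 178 CPM, adjusted p = 0.304), LDHA, YBX1, ALDOA, NPM1, LCP1, ATP5B, NAP1L1 and MALAT1. Their log2 differences lay between -0.39 (MALAT1) and 0.05 (YBX1), and MALAT1 was called lower without naive replicate 2 (-0.61) or resistant replicate 1 (-0.59). Among genes tied to myeloma drugs, CRBN, the target of lenalidomide, had 33.7 ± 2.44 to 32.5 ± 1.25 CPM (adjusted p = 0.475) in naive and resistant cells, and IKZF3, which it degrades, had 18.6 ± 7.02 to 20.4 ± 2.34 CPM (adjusted p = 0.543). The translocation partner gene MAF fell from 1677 ± 118 to 1272 ± 46.1 CPM and its target CCND2 from 895 ± 189 to 605 ± 40.8 CPM. Of 15 genes often used as references, 10 fell and 3 rose (median -0.31, or -0.13 with library size alone). Among those that fell was GAPDH, from 3476 ± 95.3 to 2790.2 ± 155 CPM.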

How the data were processed

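RNA-seq of 6 libraries, 3 of naive and 3 of bortezomib-resistant 8226, was used, with 3 carfilzomib-resistant libraries in the same fit so that all groups share an estimate of the spread. The authors deposited whole-number read counts per gene in STAR's per-gene format; the submitters' processing notes name STAR, without a version. The notes name hg19 and GRCh37 among the builds, and no release of the annotation is given in these sources. Reads on the reverse strand (column 4) were used, because 1.43% to 1.64% of stranded gene reads fell on the other strand; the 4 rows of reads outside genes were removed. Those rows held reads mapped to several places (8.95% to 10.9% of reads in the 9 libraries), unmapped reads (1.04% to 1.67%), reads on no gene (10.4% to 16.6%) and reads on several genes (0.951% to 1.14%). Genes with close copies elsewhere lose reads to this step.

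Counts were scaled by TMM and filtered by filterByExpr, which left 13910 of 23346 genes. They were tested with edgeR 4.0.16 (R 4.3.3; limma 3.58.1 underneath; glmQLFit and glmQLFTest, Benjamini-Hochberg adjustment over all tested genes). Calls needed an adjusted p below 0.05. SEs of log2 fold changes come from the F statistic. The fit was tested on simulated data. Alternatives were other scalings, no filter on low counts, 6 libraries, a replicate block, the unstranded column, each library left out, and DESeq2 1.42.0. Tables and plots were made with Python 3.11.15, pandas 2.3.3, numpy 2.4.6 and matplotlib 3.10.9. The depth was 31709636 to 46874782 gene reads in the 6 libraries.

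Named genes follow a rule: the 12 largest gains and losses in mean CPM among called genes whose groups do not overlap. The 15 steepest rises and falls, also called and non-overlapping, needed at least 20 CPM in the higher and 2 CPM in the lower group. Genes going between at least 10 CPM and at most 3 counts follow (10 highest named). The rule adds up to 5 called members of each list per direction reaching 5 CPM, key and reference genes, the 10 most abundant genes not called, and genes at or in the extreme windows of 51 neighbours. Genes named for a promoter element, genes in runs of neighbours and the lineage markers were chosen after their values were seen. The comparison, members and gene lists were chosen with earlier results of these data known. Mouse libraries were not analysed here, and some genes that the rule names are not reported here.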

Additional observations from a re-analysis of the deposited data

Results flagged for a closer look

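Among the key genes, 6 were called in opposite directions in the bortezomib-resistant and the carfilzomib-resistant line, each against the same 3 naive libraries. Calls were common over all tested genes: 79.8% for bortezomib-resistant against naive and 76.9% between the resistant lines. The share of all tested genes with such opposite calls was not counted, so these 6 are not shown to be unusual. The difference between the resistant lines was tested directly (edgeR quasi-likelihood fit, Benjamini-Hochberg adjusted). The plasma cell transcription factor gene IRF4 went from 358 ± 20.0 to 541 ± 13.9 CPM (naive to bortezomib-resistant) and stood at 155 CPM in carfilzomib-resistant cells, a log2 difference of 1.80 (adjusted p = 1.3e-13). TNFRSF17, encoding BCMA, went from 41.1 ± 2.78 to 145 ± 4.04 CPM and stood at 13.5 CPM (3.42, adjusted p = 4.0e-16). BCL2 was at 93.3 CPM in the carfilzomib line, 1.62 below the bortezomib line on the log2 scale. NFE2L1, encoding the proteasome gene activator NRF1, went from 211 ± 10.6 to 242 ± 7.13 CPM and stood at 189.6 CPM (0.35, adjusted p = 1.3e-05). MYC went from 913 ± 31.9 to 703 ± 8.56 CPM against 1079 CPM (-0.62), and EZH2 from 153 ± 6.42 to 94.9 ± 1.86 CPM against 167 CPM (-0.81). Because both lines are set against the same naive libraries, an unusual naive level would move both differences together.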

How the results depend on the processing

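The 4 counts of called genes stayed within 1.5 times their value under every alternative. Counts of genes called higher ran from 5000 (DESeq2) to 6665 (library size alone) and of genes called lower from 4681 (library size alone) to 6504 (no filter on low counts, 18814 genes tested). Leaving out each library in turn gave 5122 to 5309 higher and 5646 to 5886 lower calls. Of 738 named genes, 709 kept their direction and call in every setting; with library size alone, IKZF1 (0.0583) turned from lower to slightly higher and was not called. That setting lost 1100 of the 11095 calls. The unstranded column reversed 7 calls; the cause was not tested. Of 74 gene lists, 22 had a median that turned from below to above 0 with library size alone, and 4 with a median just above 0 turned below it with DESeq2. The labels do not say whether replicate numbers pair the libraries. Deviations of same-numbered naive and resistant libraries correlated at -0.14, 0.13 and 0.39. Those of differently numbered ones ran from -0.33 to 0.28. These few values cannot decide it. With the replicate block, 5322 genes were called higher and 5772 lower. Genes below about 0.0817 to 0.0875 CPM in a resistant library rest on 3 counts or fewer.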

Other observations

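Some gene families outside the groups above held members with wide swings. RAB39A, a small GTPase of vesicle transport, rose from 0.506 ± 0.0675 to 35.7 ± 1.09 CPM, and RAB8B from 14.5 ± 1.05 to 53.3 ± 4.40 CPM, with 26 of 58 RAB genes higher and 26 lower. GPR126, an adhesion receptor, went from 98.5 ± 7.45 to 0.0456 ± 0.0418 CPM, against 100.2 CPM in the carfilzomib line, while GPR171 rose from 0.727 ± 0.175 to 25.5 ± 2.14 CPM. The peroxisomal transporter gene ABCD2 rose from 3.81 ± 0.459 to 40.3 ± 0.607 CPM. CD44, the hyaluronan receptor, rose from 7.26 ± 0.355 to 35.1 ± 0.557 CPM, and the heparan sulfate carriers GPC1 and SDC3 fell from 51.8 ± 8.95 to 8.13 ± 0.225 CPM and from 10.7 ± 0.681 to 0.0924 ± 0.0624 CPM. Cancer-testis genes went both ways (10 of 29 higher, 15 lower): SYCP3, of the meiotic chromosome axis, rose from 1.27 ± 0.125 to 14.3 ± 0.348 CPM, and MAGEA10 fell from 7.11 ± 0.348 to 0.00973 ± 0.0168 CPM, against 68.9 CPM in the carfilzomib line. The splicing factor genes CELF2 and ESRP1 fell from 72.2 ± 2.59 to 0.176 ± 0.0529 CPM and from 66.9 ± 3.91 to 0.0454 ± 0.0566 CPM, and CELF2 was at 215 CPM in the carfilzomib line.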
